A study of Homo sapiens with 6 samples.

Results

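The data describe 55 genes of the interferon response and of antigen presentation in A375, an established human melanoma cell line. The genes were listed by name, as sensors, receptors and signalling genes, regulators, effectors, presentation genes and checkpoint ligands, out of 58523 genes with a transcript in the tables. DDX58 is the older symbol of RIGI, MB21D1 of CGAS and TMEM173 of STING1. Bulk RNA was sequenced from 3 cultures treated for 24 h with hMGL, an engineered human enzyme that degrades methionine (treated replicates 4 to 6), and from 3 untreated cultures (control replicates 1 to 3). All 6 were prepared as separate cultures of the ATCC line in medium with fetal bovine serum and penicillin/streptomycin, and the labels give no dose of hMGL. Totals were 50760266 to 53682075 estimated counts in treated libraries and 53441686 to 59954677 in untreated ones. Levels are CPM, counts over library size, scaled between libraries by the trimmed mean of M values, and errors are standard deviations over 3 libraries.

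Interferons are secreted when a cell senses foreign or misplaced nucleic acid. RNA sensors such as MDA5 (IFIH1) and RIG-I (DDX58) signal through MAVS, and the DNA sensor cGAS (MB21D1) signals through STING (TMEM173). Type I interferon acts on IFNAR1 and, through JAK1, on a complex that holds STAT2 and IRF9, which switches on antiviral effector genes. Interferon gamma acts on IFNGR1 and raises IRF1, NLRC5 and the genes that load peptides onto HLA class I molecules.

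In treated cells these genes did not move as a group. Of 54 members tested, 15 rose, 28 fell and 11 did not pass (edgeR quasi-likelihood test, adjusted p under 0.05 over all 22580 genes tested). Over all genes 69.4% were called, 34.9% higher and 34.5% lower in treated cells, against 79.6% of the tested members called, 27.8% higher and 51.9% lower. Among the 15421 protein-coding genes tested, 78.3% were called, 38.0% higher and 40.3% lower, so the members were called about as often as protein-coding genes. The median log2 fold change of the tested members was −0.19, against −0.02 for all genes tested. At least 2-fold differences were called for 8 members that rose and 7 that fell, beside 14.6% and 12.6% of all genes (27.2% in either direction, and 27.8% of members). In 40 of the 54 members the groups did not overlap, and 73.3% of all genes tested showed no overlap, a share near that of the members. The rises included both ligands of the checkpoint receptor PD-1, the sensors IFIH1 and MB21D1, IRF1, TRIM21, GBP3 and TAP2. The deepest falls were among effectors, in BST2, GBP2, GBP1, IFIT1, IFI44, IFI35 and OAS3. When a change of more than 1.5-fold was required, 11 members were higher and 11 lower, with 35.4% of all genes called in that test.

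**Figure D1:**
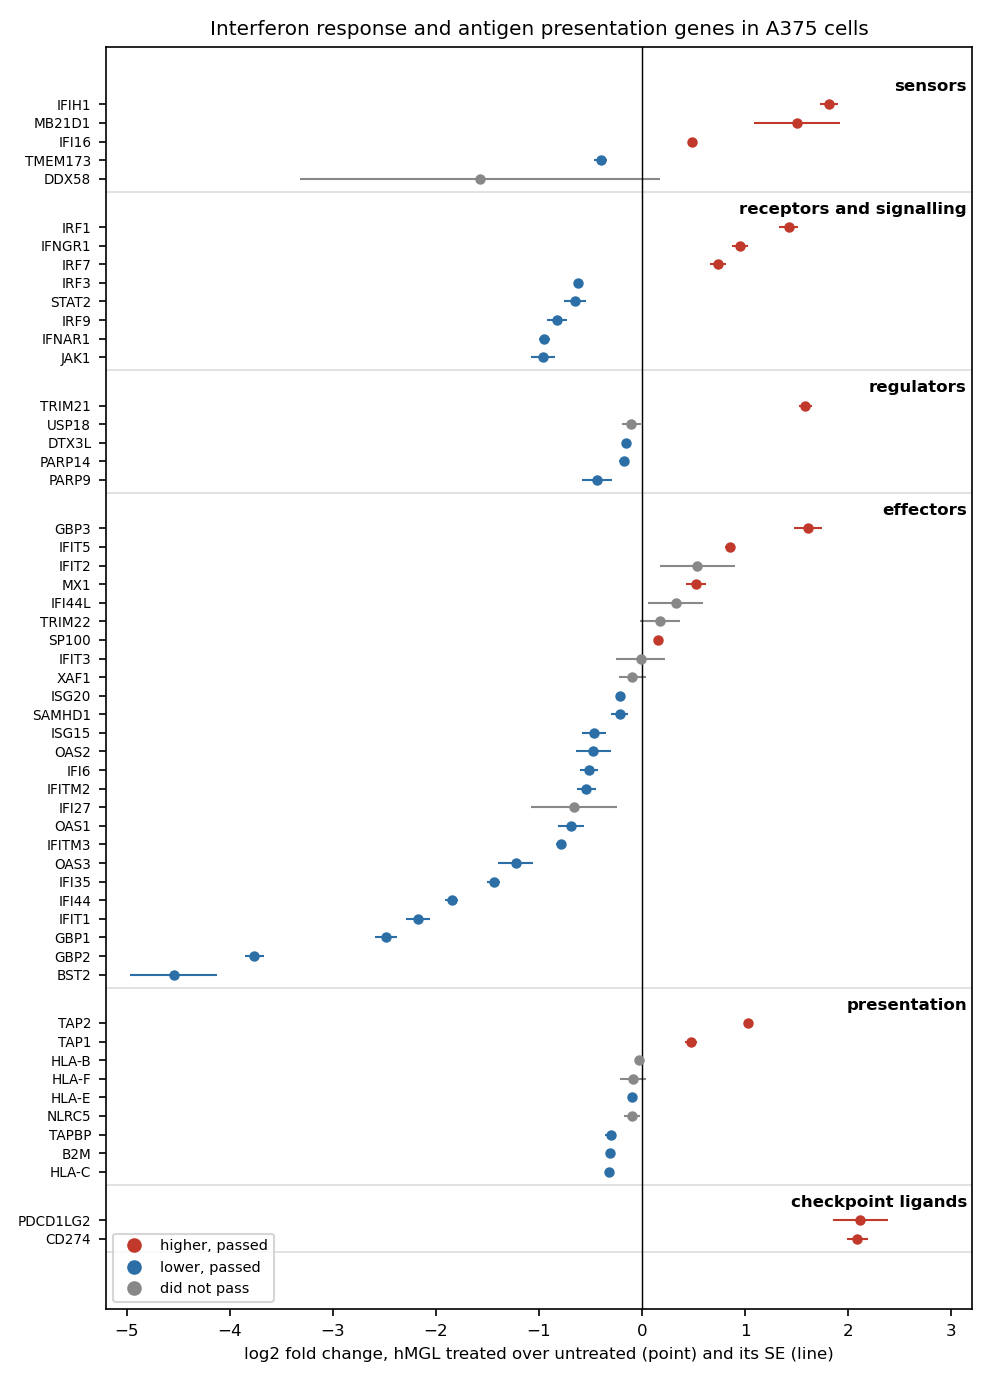
Log2 fold change of the 54 tested members, hMGL treated over untreated, by role. Points are edgeR estimates, lines are 1 SE, and colour gives the call. Most effectors lie left of 0, and both checkpoint ligands lie above 2.

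Of the 55 members, 42 had an entry among the RefSeq promoter windows (GRCh38.p14), which run from 250 bases before to 50 bases after the annotated start. GBP2, MB21D1, TMEM173, IRF3, IRF7, USP18, IFIT2, IFITM2, OAS2, TRIM22, HLA-E, NLRC5 and PDCD1LG2 had no entry there. The interferon-stimulated response element (ISRE), the site that STAT2 and IRF9 recognise as part of a complex, was searched on both strands as GAAA, any 2 bases and GAAA again, which reads TTTC, any 2 bases and TTTC on the other strand. It was found in 26 of the 42 windows (61.9%), against 3.57% of all 35116 windows of that length. It stood in 8 of 12 windows of genes that rose and in 13 of 22 of genes that fell. The gamma-activated site, searched as TTC, any 3 bases and GAA on both strands, was found in 10 of the 42 (23.8%) and in 7.66% of all windows. It overlapped an ISRE match in 3 members, IFI27, IFITM1 and BST2. A match is a string of letters and says nothing about binding in these cells. The stretches below are shown because genes that rose and genes that fell carry the same motif, and the genes were picked with their calls known. They give the matches closest to the start and before it, in capitals, on the strand of the gene. IFIH1, CD274, IFIT5 and TAP2 rose, and IFIT1, GBP1, IFI44 and B2M fell.
IFIH1: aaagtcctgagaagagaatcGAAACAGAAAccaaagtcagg
CD274: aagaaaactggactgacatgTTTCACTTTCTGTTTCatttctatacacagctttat
IFIT5: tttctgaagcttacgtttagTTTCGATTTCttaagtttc
TAP2: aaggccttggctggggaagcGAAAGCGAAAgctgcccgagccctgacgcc
IFIT1: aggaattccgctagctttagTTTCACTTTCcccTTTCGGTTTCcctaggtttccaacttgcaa
GBP1: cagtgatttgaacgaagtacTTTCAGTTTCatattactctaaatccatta
IFI44: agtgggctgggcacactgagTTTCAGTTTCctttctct
B2M: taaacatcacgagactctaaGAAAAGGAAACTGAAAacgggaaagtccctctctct
They lie at chr2:162318685-162318725 (minus strand) for IFIH1, chr9:5450314-5450369 (plus) for CD274, chr10:89414529-89414567 (plus) for IFIT5 and chr6:32838768-32838817 (minus) for TAP2. Those of the genes that fell lie at chr10:89392487-89392549 (plus) for IFIT1, chr1:89065306-89065355 (minus) for GBP1, chr1:78649751-78649788 (plus) for IFI44 and chr15:44711353-44711408 (plus) for B2M. In CD274 and B2M a pair of matches shares bases.

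Among the 5 sensors, 3 rose, 1 fell and 1 did not pass, where 78.3% of protein-coding genes were called. IFIH1, which binds long double-stranded RNA, had 11.5, 11.5 and 10.8 CPM in treated libraries, against 3.23, 3.01 and 3.39 CPM in untreated ones. The groups were far apart, and the level was 3.51-fold higher in treated cells (log2 fold change 1.81 ± 0.086 SE, adjusted p = 2.28e-12 in edgeR). MB21D1, the cytosolic DNA sensor that makes cGAMP, was rare, with 58 counts over the treated and 22 over the untreated libraries. Its ratio was 2.75, with an exact 95% interval of 1.66 to 4.71 that covers counting error only (adjusted p = 0.00401 in edgeR). IFI16, a nuclear DNA sensor, had 197, 199 and 199 CPM in treated libraries and 145, 136 and 143 CPM in untreated ones. It was the most abundant sensor in both groups per length, at 80.2 TPM in treated and 50.9 TPM in untreated cells, and rose 1.40-fold.

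TMEM173, the adaptor that receives cGAMP, fell to 13.7, 11.9 and 13.6 CPM in treated libraries, against 17.7, 17.2 and 16.9 CPM in untreated ones. The groups did not overlap, the log2 fold change was −0.40, and the call was lost in limma on log2(TPM + 1), where it was −0.12 (adjusted p = 0.366). DDX58, which binds RNA with a 5′ triphosphate, gave 0.944, 0 and 0 CPM in treated and 0.0641, 1.97 and 0.875 CPM in untreated libraries. These values overlap and are erratic between libraries of a group (adjusted p = 0.476 in edgeR). They come from 2 transcripts, and transcripts that could not be matched to a gene are not in them, so nothing is read from DDX58.

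Of the 12 other sensing genes on a list written for this comparison, 2 rose, 8 fell and 2 did not pass. MAVS, the mitochondrial adaptor shared by IFIH1 and DDX58, fell to 57.2, 59.6 and 54.3 CPM in treated libraries, against 179.6, 171.6 and 174.5 CPM in untreated ones. This was 3.07-fold lower, so the sensor IFIH1 was higher and its adaptor lower in the same libraries. TRIM25, a ubiquitin ligase that activates RIG-I, rose to 342.5, 336.3 and 339.5 CPM in treated libraries, against 145.6, 139.6 and 143.5 CPM in untreated libraries. AIM2, a DNA sensor of the inflammasome, was 3.47-fold lower in treated cells, and IKBKE, a kinase that activates IRF3, had a log2 fold change of −0.95. TICAM1, the adaptor of TLR3, rose 1.14-fold, a call lost with an offset for effective length (adjusted p = 0.0543) and in limma on log2(TPM + 1).

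**Figure D2:**
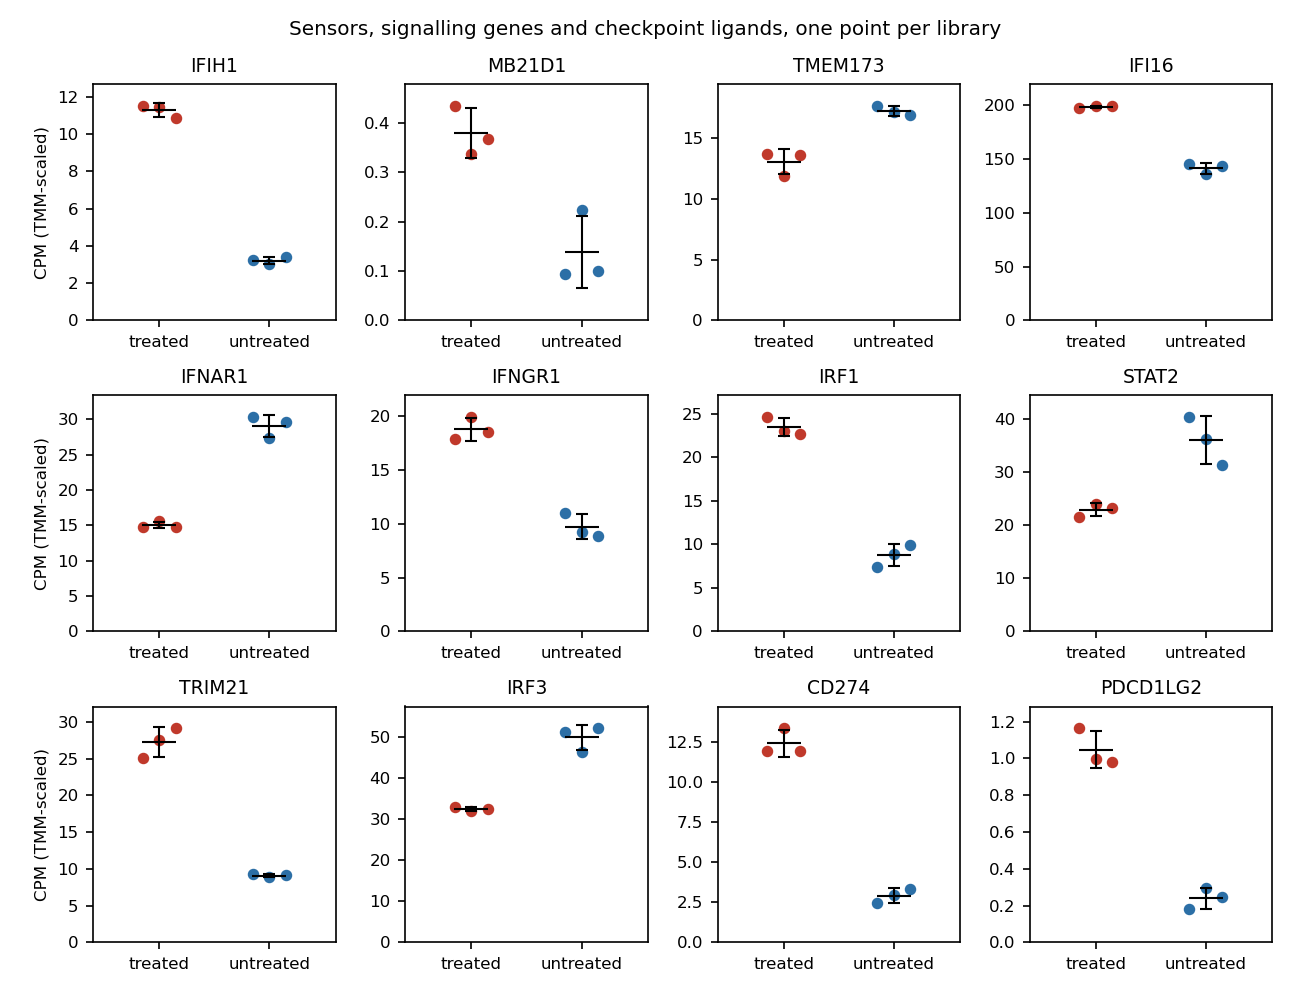
CPM of sensors, signalling genes and checkpoint ligands. Each point is a library, and bars give the mean and SD of 3 libraries. IFIH1, IRF1, TRIM21, CD274 and PDCD1LG2 are higher in all treated libraries, and IFNAR1, STAT2, IRF3 and TMEM173 are lower.

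All 8 receptor and signalling members passed, 3 higher and 5 lower, in a comparison that called 69.4% of all genes and 78.3% of protein-coding genes. The receptor chains among the members, IFNAR1 and IFNGR1, moved in opposite directions. IFNAR1, of the type I receptor, had 14.8, 15.6 and 14.8 CPM in treated libraries, against 30.4, 27.3 and 29.6 CPM in untreated ones. That is 1.93-fold lower (adjusted p = 1.61e-11 in edgeR). IFNGR1, which binds interferon gamma, had 17.9, 19.9 and 18.5 CPM in treated and 11.0, 9.22 and 8.90 CPM in untreated libraries, 1.93-fold higher (adjusted p = 2.72e-08). The partner chains, of which IFNAR2 was picked after its values were seen, both fell. IFNGR2 was 1.91-fold lower, and IFNAR2 had 0.52, 0.79 and 0.68 CPM in treated against 2.28, 1.82 and 2.23 CPM in untreated libraries. JAK1, the kinase that both receptors use, fell to 32.8, 24.5 and 27.5 CPM in treated libraries, against 56.3, 53.0 and 56.2 CPM in untreated ones.

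Each listed member of the complex downstream of IFNAR1 was lower. STAT2 had 21.6, 24.0 and 23.2 CPM in treated libraries and 40.4, 36.2 and 31.3 CPM in untreated ones. Its log2 fold change of −0.65 was −0.18 with an offset for effective length (adjusted p = 0.0751), and it was −0.94 when protein-coding transcripts alone were summed. IRF9, which gives the complex its DNA contact, had 3.82, 3.92 and 3.60 CPM in treated and 6.34, 7.19 and 6.61 CPM in untreated libraries, 1.77-fold lower. IRF3, the factor that STING and MAVS activate, fell 1.54-fold (32.9, 31.8 and 32.5 CPM in treated, against 51.1, 46.3 and 52.1 CPM in untreated libraries). IRF7, which amplifies interferon production, rose 1.67-fold, with 8.39, 8.70 and 8.31 CPM in treated and 5.09, 5.00 and 5.15 CPM in untreated libraries. IRF1, a factor that interferon gamma and NF-kB induce, rose to 24.6, 23.0 and 22.7 CPM in treated libraries, against 7.41, 8.95 and 9.95 CPM in untreated ones. It was 2.68-fold higher and its groups were well apart (adjusted p = 1.49e-07 in edgeR).

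In the list of 11 other signalling genes, 3 rose, 7 fell and 1 did not pass. IRF2, which antagonises IRF1 at shared sites, fell to 10.9, 10.6 and 10.7 CPM in treated libraries, against 29.1, 26.1 and 26.4 CPM in untreated ones. IRF1 was higher and its antagonist lower in all 3 treated libraries. SOCS3, a feedback inhibitor of JAK kinases, was 2.52-fold lower, and the kinase JAK2 was 1.67-fold higher. SOCS1, a feedback inhibitor that interferon induces, had under 0.5 CPM in every library, and its call at a log2 fold change of 1.03 was lost in DESeq2 (adjusted p = 0.0797) and without control replicate 1 or 2 or treated replicate 6 (adjusted p = 0.0819, 0.0673 and 0.0552).

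None of the 8 interferon genes looked at had enough counts to be tested. Among IFNB1, IFNA1, IFNE, IFNK, IFNG, IFNL1, IFNL2 and IFNL3, the highest count in a library was 6 in treated and 13 in untreated cells, both for IFNE. The other 7 had at most 2 counts in a treated library and at most 3 in an untreated one, too few to show a difference at this depth. The chemokines CXCL10 and CXCL11, which interferon strongly induces in many cells, had at most 1 count in any library. RSAD2 and CCL5, from the same list of other effectors, were likewise not tested. RSAD2 had at most 4.21 estimated counts in a treated and 9.26 in an untreated library, and CCL5 at most 3.46 and 17.8.

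The 5 regulators gave 1 rise and 3 falls, where 78.3% of protein-coding genes were called. TRIM21, a cytosolic antibody receptor and ubiquitin ligase, rose by a log2 fold change of 1.58, with 25.1, 27.6 and 29.2 CPM in treated and 9.27, 8.92 and 9.12 CPM in untreated libraries (adjusted p = 1.31e-13 in edgeR). DTX3L and PARP9, which form a ubiquitin ligase complex, and their neighbour PARP14 on chromosome 3 were lower by small amounts. DTX3L was 1.11-fold lower, PARP14 1.13-fold lower and PARP9 1.35-fold lower, and in PARP9 the groups overlapped. DTX3L and PARP14 lost their calls with library totals alone and in limma on log2 TPM, and PARP9 lost its call in those and 3 further settings and without control replicate 2 or 3 or treated replicate 5 or 6 (adjusted p = 0.0858, 0.0732, 0.15 and 0.161). PARP9 and DTX3L overlap at their starts on opposite strands, and the labels do not say that the libraries keep strand. USP18, which removes ISG15 from proteins and blocks IFNAR signalling, had 5.47, 5.62 and 5.12 CPM in treated and 5.89, 6.01 and 5.54 CPM in untreated libraries and did not pass (adjusted p = 0.324).

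The effectors made up 25 of the 54 tested members and 15 of the 28 that fell. Of the 25, 4 rose and 6 did not pass, and the median log2 fold change was −0.47. The share called was 76%, beside 69.4% of all genes and 78.3% of protein-coding genes. IFITM1, with at most 5.84 estimated counts in a treated and 16.6 in an untreated library, was not tested. The GBP and IFIT families each held members that rose and members that fell.

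The guanylate-binding proteins, GTPases that attack vacuoles of pathogens and are induced by interferon gamma, split within a cluster on chromosome 1. GBP2 had 1.77, 1.53 and 1.96 CPM in treated libraries, against 25.5, 21.9 and 24.0 CPM in untreated ones. It was 13.5-fold lower (log2 fold change −3.76 ± 0.091 SE, adjusted p = 2.93e-16 in edgeR), the deepest fall of the members apart from BST2. GBP1 had 1.80, 1.64 and 1.51 CPM in treated and 9.16, 8.74 and 9.84 CPM in untreated libraries, 5.59-fold lower. GBP3 had 3.62, 3.72 and 3.90 CPM in treated and 1.17, 1.20 and 1.32 CPM in untreated libraries, 3.04-fold higher. Thus 2 of the 3 fell and the third rose, with no overlap between the groups in any of the gene sums. GBP4 and GBP5, from the list of other effectors, lie on the same stretch of chromosome 1 and did not pass. Their log2 fold changes were −0.15 and 0.09 (adjusted p = 0.467 and 0.869 in edgeR). Protein-coding transcripts held 14.2% of the counts of GBP3 in treated and 20.9% in untreated cells. They had 0.298, 0.627 and 0.690 CPM in treated and 0.325, 0.145 and 0.291 CPM in untreated libraries, which overlap (log2 fold change 1.12, adjusted p = 0.0343 in edgeR on coding transcripts). In GENCODE 29 (GRCh38) GBP3 spans 89006666 to 89022894, GBP1 89052319 to 89065360 and GBP2 89106132 to 89150456. These genes resemble each other in sequence, and how far reads were shared among them was not measurable from the tables.

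The IFIT genes, which bind viral RNA or associate with those that do, lie in a cluster on chromosome 10 and were also split. IFIT1, which binds RNA caps that lack 2′-O methylation, had 1.49, 1.56 and 1.24 CPM in treated libraries, against 6.27, 6.67 and 6.46 CPM in untreated ones, 4.51-fold lower. IFIT5 had 34.9, 37.0 and 37.4 CPM in treated and 19.96, 19.19 and 21.27 CPM in untreated libraries, 1.81-fold higher. Elsewhere in the cluster, IFIT2 (6.23, 5.29 and 3.18 CPM in treated, 4.61, 2.68 and 2.85 CPM in untreated libraries) and IFIT3 (7.61, 5.55 and 8.21, against 9.15, 5.92 and 6.52 CPM) overlapped between groups and did not pass. Without treated replicate 6, IFIT2 passed as higher (log2 fold change 0.80, adjusted p = 0.0309). Per length, IFIT5 was the highest of the family in both groups, at 10.5 TPM in treated and 5.41 TPM in untreated cells.

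The 3 OAS genes, whose enzymes make 2′-5′ oligoadenylates that activate RNase L, all fell. OAS1 had 2.67, 2.72 and 2.90 CPM in treated and 3.98, 4.29 and 5.09 CPM in untreated libraries. OAS3 had 3.96, 2.81 and 3.70 CPM in treated and 8.29, 9.69 and 6.59 CPM in untreated libraries, 2.34-fold lower. Most of that count belongs to a transcript annotated as retaining an intron. The protein-coding part of OAS3 is 6.83% of the counts in treated and 4.97% in untreated cells, and its own test did not pass (log2 fold change −0.70, adjusted p = 0.157). OAS2 overlapped between groups, at 1.96, 1.56 and 2.64 CPM in treated and 3.04, 2.63 and 2.84 CPM in untreated libraries. Its call was lost in DESeq2 (adjusted p = 0.0508) and in 4 of the 6 fits that left out a library. The 4 were those without control replicate 1 or 3 or treated replicate 4 or 5 (adjusted p = 0.0809, 0.0523, 0.101 and 0.166).

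**Figure D3:**
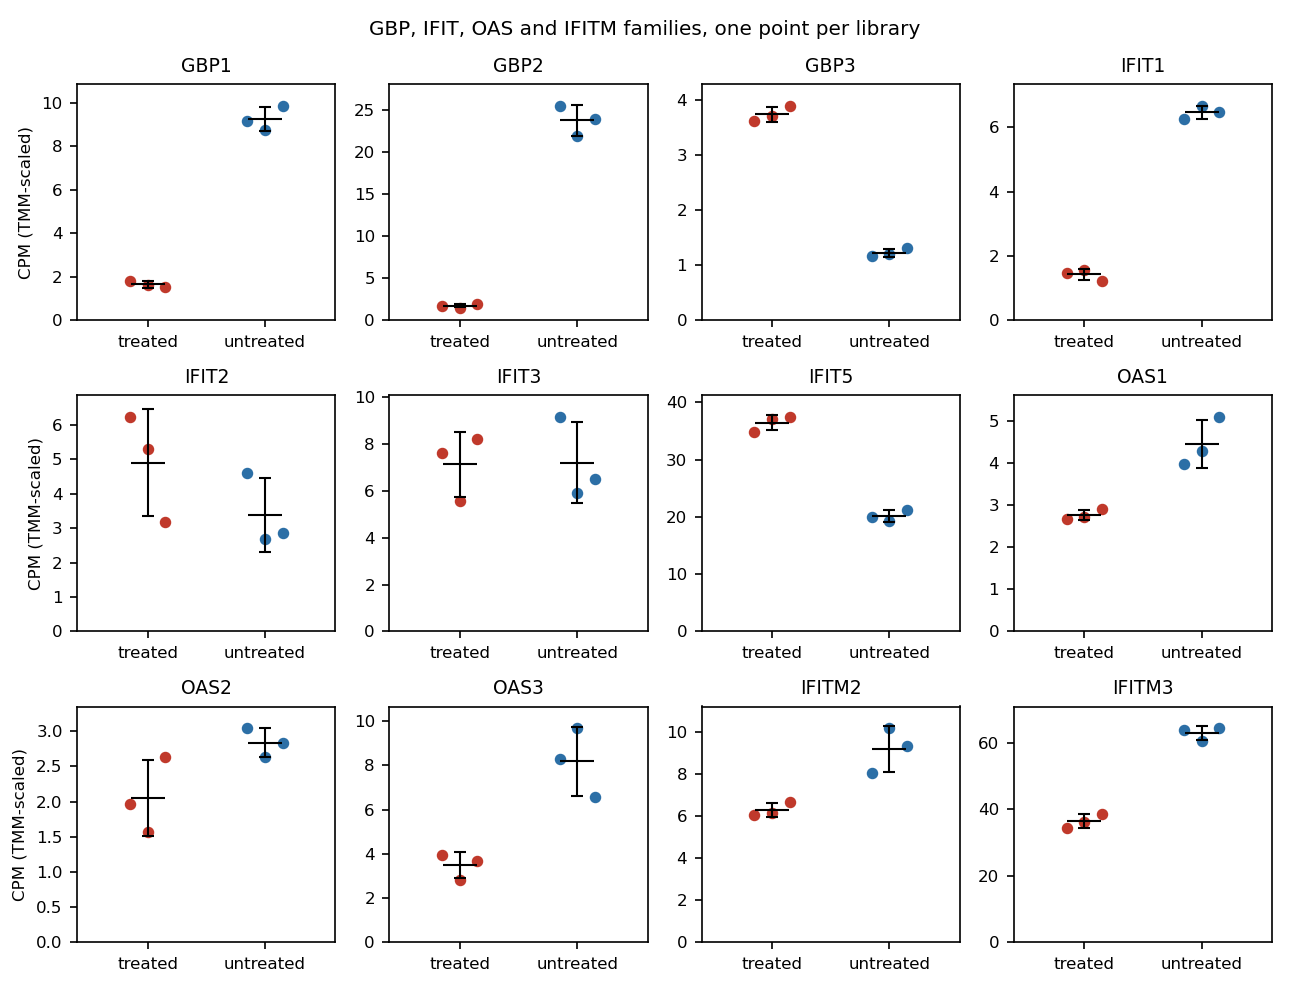
CPM of members of the GBP, IFIT, OAS and IFITM families. Each point is a library, and bars give the mean and SD of 3 libraries. GBP1 and GBP2 are low in treated libraries where GBP3 is high, and IFIT1 is low where IFIT5 is high.

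IFITM3, which blocks fusion of viruses in endosomes, fell to 34.4, 36.2 and 38.6 CPM in treated libraries, against 63.7, 60.5 and 64.4 CPM in untreated ones, and IFITM2 was 1.46-fold lower. The IFITM genes are close copies, and IFITM1 and IFITM2 overlap in the annotation, so their separate levels are uncertain. IFI44 fell 3.60-fold, with 5.79, 6.17 and 6.28 CPM in treated and 22.4, 21.6 and 21.7 CPM in untreated libraries. IFI35, a partner of NMI, fell 2.71-fold, with 7.16, 6.89 and 6.91 CPM in treated and 18.9, 18.7 and 19.2 CPM in untreated libraries. BST2 (tetherin), which holds budding virus at the cell surface, was rare in both groups. It had 5 counts over the treated and 130 over the untreated libraries, and its ratio of untreated over treated was 24.9, with an exact 95% interval of 10.4 to 78.1 for counting error. The fitted log2 fold change was −4.54, and −5.15 without treated replicate 4.

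ISG15, a ubiquitin-like modifier, had 2.54, 2.49 and 2.68 CPM in treated and 3.43, 3.62 and 3.58 CPM in untreated libraries, 1.38-fold lower. UBE2L6 and UBA7, which act in attaching ISG15 to proteins, were lower too, and not every enzyme of this step is described here. UBE2L6 fell to 9.26, 8.90 and 9.44 CPM in treated libraries, against 34.4, 33.9 and 35.4 CPM in untreated ones, and the activating enzyme UBA7, named here after its values were seen, had 0.66, 0.66 and 0.70 CPM against 2.60, 2.89 and 2.56 CPM. MX1, a GTPase active against influenza virus, went the other way. It had 10.2, 8.76 and 9.66 CPM in treated and 5.81, 6.72 and 7.39 CPM in untreated libraries, 1.44-fold higher. With an offset for effective length its log2 fold change was 0.25 (adjusted p = 0.184). The remaining falls, in IFI6, ISG20 and SAMHD1, were 1.43-fold, 1.16-fold and 1.16-fold. SAMHD1, which depletes nucleotides, overlapped between groups and lost its call in 5 settings and without control replicate 1 or 3 or treated replicate 5 or 6 (adjusted p = 0.142, 0.118, 0.135 and 0.103). SP100, a nuclear body protein, rose 1.11-fold. IFI27, IFI44L, TRIM22 and XAF1 did not pass, at log2 fold changes of −0.66, 0.33, 0.17 and −0.09.

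In the list of 39 other effectors, 35 were tested, of which 8 rose, 19 fell and 8 did not pass. HELZ2, a helicase, was 2.42-fold lower and the aminopeptidase LAP3 1.92-fold lower. ZC3HAV1, which binds CpG-rich viral RNA, was 1.62-fold higher, and the ubiquitin ligases TRIM38 and TRIM56 were 2.04-fold and 1.65-fold higher. Over all 86 other genes of the pathway, 74 were tested, 14 rose and 45 fell, with a median log2 fold change of −0.38. The share called was 79.7%, beside 78.3% of protein-coding genes. By direction, 18.9% were higher and 60.8% lower, beside 38.0% and 40.3% of protein-coding genes. These lists were written with earlier results of these data known.

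Of the 9 presentation genes, 2 rose, 4 fell and 3 did not pass, where 78.3% of protein-coding genes were called. Both subunits of the peptide transporter rose, and B2M and HLA-C fell. TAP2 had 62.8, 60.9 and 61.9 CPM in treated libraries, against 29.8, 29.5 and 31.6 CPM in untreated ones, 2.04-fold higher (adjusted p = 8.03e-14 in edgeR). With an offset for effective length the log2 fold change of TAP2 was 0.59 in place of 1.03. TAP1 had 26.2, 22.7 and 26.2 CPM in treated and 18.7, 16.9 and 18.6 CPM in untreated libraries, 1.39-fold higher. B2M, the invariant light chain of class I, fell to 295.8, 306.7 and 302.9 CPM in treated libraries, against 381, 365 and 379 CPM in untreated ones, 1.24-fold lower. HLA-C had 62.3, 59.0 and 59.4 CPM in treated and 79.1, 72.3 and 74.8 CPM in untreated libraries, 1.25-fold lower. HLA-B had 53.7, 53.2 and 49.3 CPM in treated and 55.8, 51.2 and 52.3 CPM in untreated libraries, and the groups overlapped (adjusted p = 0.577). With an offset for effective length HLA-B was called lower (log2 fold change −0.39, adjusted p = 0.00174).

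TAPBP (tapasin), which bridges TAP and class I, was 1.24-fold lower and lost its call in limma on log2(TPM + 1) (adjusted p = 0.335). HLA-E, the ligand of NKG2A, was 1.07-fold lower. Its call was lost in 8 of the 9 other settings and without control replicate 3 or treated replicate 4, 5 or 6 (adjusted p = 0.117, 0.0543, 0.153 and 0.187). HLA-F did not pass. The spans of HLA-B and HLA-C overlap in the annotation and class I genes share much sequence, so reads may be assigned to the wrong one of them.

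Per length, B2M stood far above the rest, at 475 ± 12.9 TPM in treated and 549 ± 39.7 TPM in untreated cells. HLA-B followed at 35.6 ± 6.51 and 43.1 ± 4.25 TPM, and HLA-C at 26.9 ± 2.87 and 32.3 ± 2.82 TPM. In HLA-B a transcript of 147 bases held 45.2% and 57.0% of the TPM, so this level depends strongly on how that short transcript was quantified. TAP2 reached 26.7 ± 4.98 TPM in treated cells, within the spread of HLA-C, and 16.4 ± 1.73 TPM in untreated cells. A noncoding transcript of 274 bases held 66.3% of the TPM of TAP2 in treated and 71.7% in untreated cells. The coding transcript TAP2-201 had 6.56 ± 0.439 TPM in treated and 2.77 ± 0.165 TPM in untreated cells, so the place of TAP2 beside HLA-C rests on the short transcript. HLA-E was at 17.3 TPM in both groups. TAPBP, TAP1 and NLRC5 were at 7.96, 6.51 and 7.07 TPM in treated and at 8.77, 4.37 and 3.60 TPM in untreated cells, and HLA-F was the lowest at 1.97 and 1.90 TPM.

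**Figure D4:**
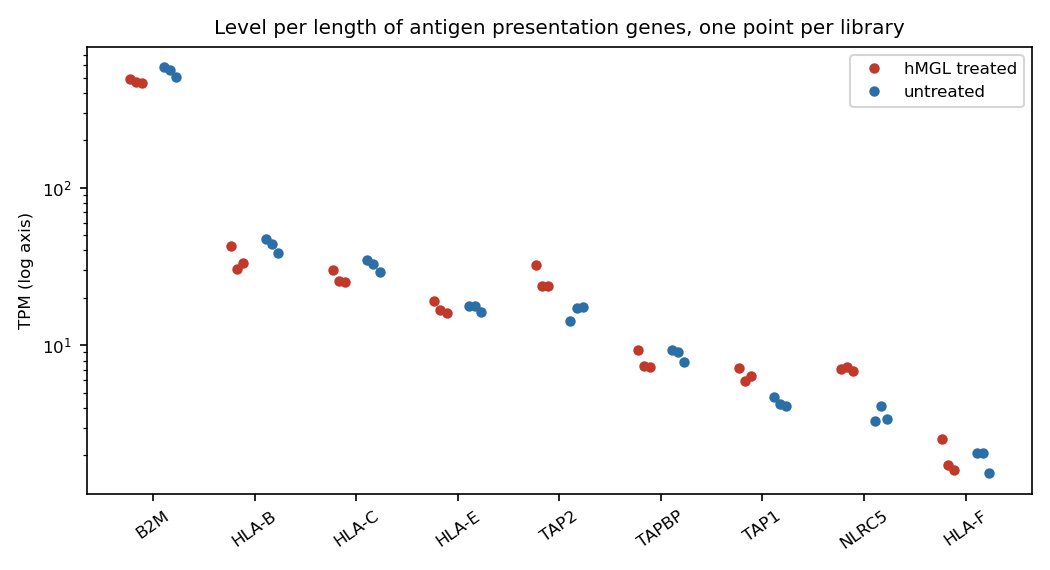
TPM of the 9 presentation genes on a log axis, 1 point per library, treated left of untreated for each gene. B2M lies above all others in both groups, and TAP2, TAP1 and NLRC5 are higher in treated libraries.

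In the list of 16 other presentation genes, 1 rose, 11 fell and 4 did not pass. PSME1 and PSME2, the subunits of the proteasome activator PA28, fell to similar degrees. PSME2 had 24.3, 24.1 and 23.9 CPM in treated libraries, against 62.9, 60.2 and 64.0 CPM in untreated ones, 2.59-fold lower, and PSME1 was 2.45-fold lower. CALR, a chaperone of the peptide-loading complex, was 2.02-fold lower. TAPBPL, a peptide editor related to tapasin, was the member of that list that rose, 2.14-fold, from a level of 6.89 ± 0.386 CPM in untreated cells.

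The ligands of PD-1, an inhibitory receptor of T cells, showed the highest rises of the members in gene sums. With an offset for effective length PDCD1LG2 kept a log2 fold change of 2.10, while CD274 was at 1.27, below IRF1, IFIH1, TRIM21, MB21D1 and GBP3. The offset weighs short transcripts up. A noncoding transcript of 442 bases held 52.6% of the TPM of CD274 in treated and 67.9% in untreated cells. With coding transcripts alone the log2 fold change of CD274 was 2.58. CD274 (PD-L1) had 11.9, 13.4 and 11.9 CPM in treated libraries, against 2.47, 2.93 and 3.35 CPM in untreated ones, 4.25-fold higher (log2 fold change 2.09 ± 0.10 SE, adjusted p = 5.05e-12 in edgeR). PDCD1LG2 (PD-L2) had 1.17, 0.996 and 0.982 CPM in treated and 0.182, 0.295 and 0.246 CPM in untreated libraries. From 160 counts in treated and 38 in untreated libraries its ratio was 4.39, with an exact 95% interval of 3.06 to 6.43 for counting error. The genes lie next to each other on chromosome 9, CD274 at 5450503 to 5470566 and PDCD1LG2 at 5510570 to 5571254.

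The tables are per transcript, so a gene sum can move through transcripts that code for no protein. In 9 members, the share of counts in protein-coding transcripts differed by at least 10 percentage points between the groups with no overlap, lower in treated cells for 6 of them and higher for 3. That is 17.6% of the 51 members that reached 1 CPM in a library, and 7.47% of the 13581 protein-coding genes that did so met the same rule. These counts describe the estimates, whose error within a gene was not measurable from the tables. NLRC5, the transactivator of class I genes, shows the difference best. Its gene sum overlapped between groups (9.19, 8.63 and 10.1 CPM in treated, 9.26, 9.99 and 10.6 CPM in untreated libraries). Its protein-coding transcripts had 2.85, 2.59 and 3.48 CPM in treated libraries, against 4.51, 5.69 and 6.32 CPM in untreated ones, a log2 fold change of −0.86 (adjusted p = 0.000728 in edgeR on coding transcripts). Its other transcripts had 6.34, 6.04 and 6.59 CPM in treated and 4.75, 4.30 and 4.29 CPM in untreated libraries. A short noncoding transcript of 563 bases took 57.4% of the TPM of NLRC5 in treated and 30.3% in untreated cells. With an offset for effective length, which weighs such short transcripts up, NLRC5 was called higher (log2 fold change 0.87, adjusted p = 2.16e-05), so its direction depends on what is counted.

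In CD274 the coding share moved the other way, and both classes of transcript were higher in treated libraries. Its noncoding transcripts had 2.23, 2.01 and 1.81 CPM in treated and 0.88, 0.87 and 1.69 CPM in untreated libraries. Its protein-coding transcripts had 9.68, 11.4 and 10.1 CPM in treated libraries, against 1.59, 2.06 and 1.66 CPM in untreated ones, a log2 fold change of 2.58. The coding share was 83.7% in treated and 60.7% in untreated cells, beside the lower fold with the offset for effective length. In IFI44 the coding share was 59.0% in treated and 83.5% in untreated cells, in GBP2 42.1% and 64.7%, in STAT2 70.1% and 87.6%, and in TMEM173 65.6% and 83.9%. With coding transcripts alone their log2 fold changes were −2.32, −4.35, −0.94 and −0.72, further from 0 than the gene sums. That follows from a lower coding share in genes whose sums fell, and is no separate result.

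**Figure D5:**
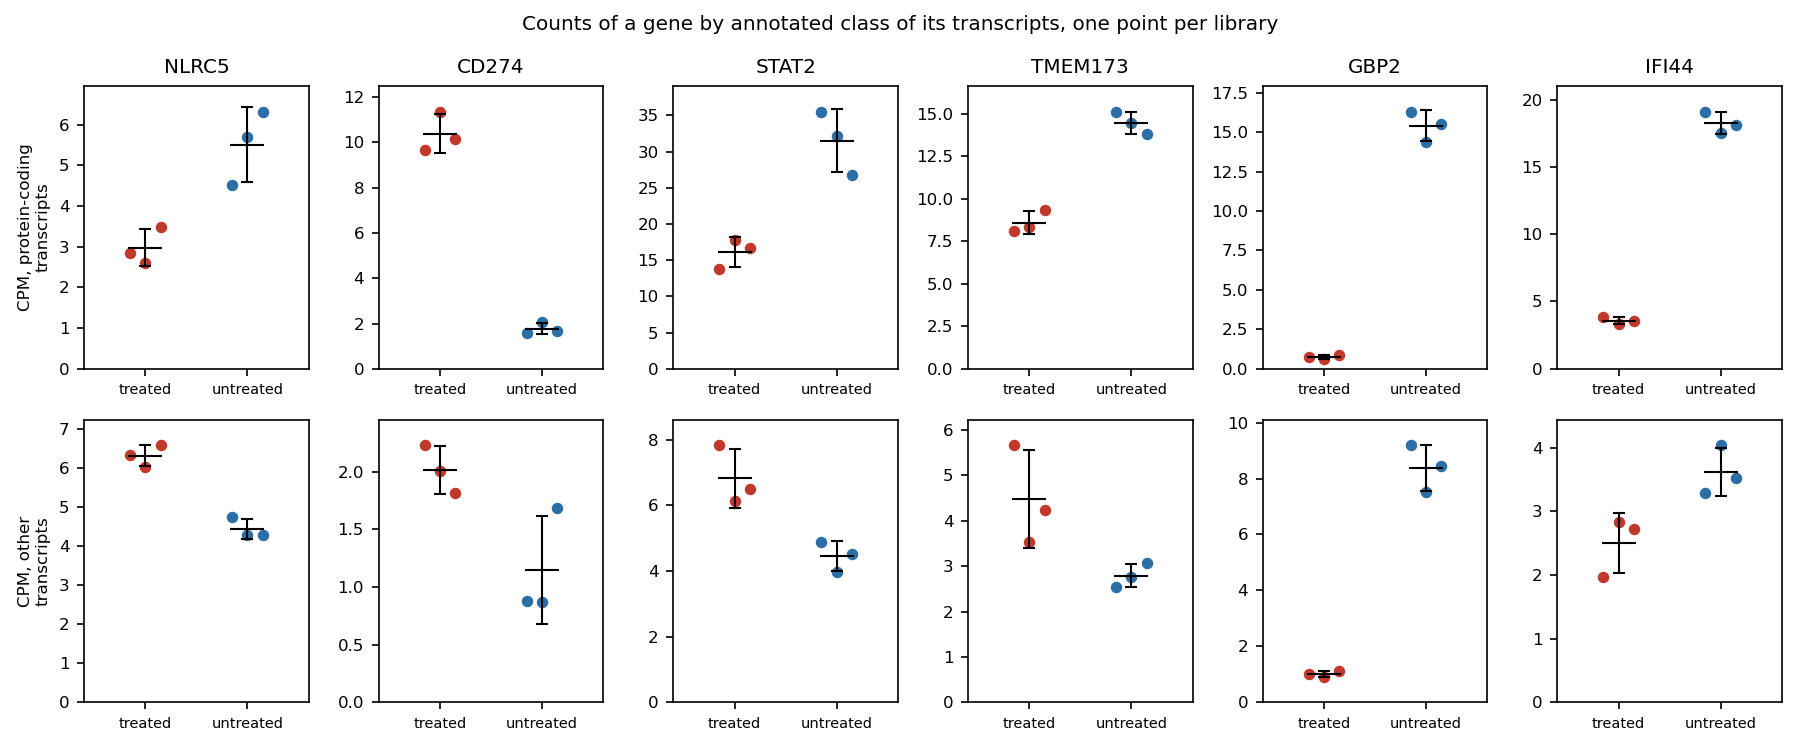
CPM of 6 members split by annotated class of transcript, protein-coding above and all other classes below, 1 point per library with the mean and SD of 3 libraries. In NLRC5, STAT2 and TMEM173 the coding part is lower and the other part higher in treated libraries.

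The libraries resembled each other within groups, with a Pearson r of 0.99 across genes, which are not independent replicates, and of 0.940 to 0.943 between groups. Defining markers of the melanocyte lineage were present, with SOX10 at 350 ± 6.77 CPM in treated and 417 ± 31.4 CPM in untreated cells and MITF at 41.5 and 43.8 CPM, while TYR, MLANA, TYRP1 and DCT were near or under 1 CPM in every library. Several of the 10 markers differed between the groups. S100B fell to 5.83 ± 1.12 CPM in treated cells, against 38.6 ± 0.831 CPM in untreated cells, and PRAME was 1.83-fold lower. TFAP2A was 1.53-fold higher, PMEL had 2.05 CPM in treated and 0.555 CPM in untreated cells, and TYRP1 had 0.724 and 0.103 CPM. The 6 leukocyte markers summed to 1.15 to 1.43 CPM in treated and to 0.326 to 0.773 CPM in untreated libraries, with none above 0.655 CPM, PTPRC at 0.0631 to 0.205 CPM, and CD3E at 0 in 2 untreated libraries. ITGAM had 0.47, 0.478 and 0.655 CPM in treated and 0.0363, 0 and 0 CPM in untreated libraries. The 5 fibroblast markers summed to 3.09 to 3.46 CPM in treated and 8.03 to 8.25 CPM in untreated libraries. The part of these in the results above was not tested. In bulk RNA, fewer cells with a transcript and less of it per cell cannot be told apart.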

How the data were processed

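Per the file headers, the deposited tables give each transcript's estimated counts (expected counts, not whole and not scaled between libraries), its TPM and its effective length. Per the submitters' processing notes, kallisto 0.45.0 and DESeq2 1.30.0 were used, with no role stated. The transcript index and genome build are not given in the sources used here. Of 244939 transcripts, 203436 were matched by identifier to GENCODE 29 (GRCh38) and summed to genes. The other 41503, with 4.86% to 5.13% of the counts, were not used, so gene sums can be incomplete. TPM were likewise summed per gene. Sums were rounded, filtered (filterByExpr, minimum count 10, minimum total 15), scaled by TMM and tested in edgeR 4.0.16 (two-sided quasi-likelihood, robust), with Benjamini-Hochberg over 22580 genes. TMM makes every change relative to the typical gene. Checks used DESeq2 1.42.0, limma 3.58.1 on log2 TPM plus 1 or 0.1, other filters and scaling, coding transcripts alone and each library left out. The common biological coefficient of variation was 0.074.

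The members, the gene lists and the rule for named genes were chosen with earlier results of these data known. Values per library are given for up to 4 members of each role with the lowest adjusted p and for 16 members fixed by name, and for others where the text describes a family. For DTX3L, PARP14 and PARP9, which this rule takes in, folds are given without values per library. From each other list up to 3 genes in each direction with the lowest adjusted p were taken, of which the text gives a part. IFNAR2 and UBA7 were chosen after their values were seen.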

Additional observations from a re-analysis of the deposited data

How the results depend on the processing

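The counts of members higher and lower stayed within 1.5 times the reported ones in every alternative except that of a minimum fold. The count of members lower moved more than that of members higher. It was 19 in both limma fits and 22 with library totals alone, against the reported 28, while 15 were higher in each of these. When more than 1.5-fold was required, 11 members were lower, 4223 genes were higher and 3764 lower, and of the other pathway genes 9 were higher and 24 lower. With a library left out, 15 to 16 members were higher and 24 to 27 lower. Of the 54 tested members, 26 kept direction and call in all alternatives run, and 22 lost a call in some of them. IFI16, IRF3, IFI6, IFITM2, ISG15, ISG20, OAS1, SP100, HLA-C, B2M and TAP1 lost theirs only where more than 1.5-fold was required. That setting asks for a larger change and drops small ones. The log2 fold change changed sign in 6 members, none of them called in edgeR except HLA-E. IFIT3 turned to 0.0633 with library totals alone, 0.00102 with no filter on low counts, 0.0741 and 0.0988 in limma on log2(TPM + 1) and log2(TPM + 0.1), and 0.0182 with coding transcripts, and ran between −0.136 and 0.202 with a library left out. XAF1 turned to 0.244 with coding transcripts and ran between −0.173 and 0.0121 with a library left out. HLA-B turned to 0.0478 with library totals and 0.00384 with coding transcripts, and ran between −0.0537 and 0.0379 with a library left out. HLA-E turned to 0.00131 and 0.00124 in the limma fits and HLA-F to 0.0273 and 0.0357. NLRC5 turned to 0.87 with an offset for effective length and to 0.81 and 0.96 in limma, and the cause was not tested. No paired analysis was possible because the groups share no replicate number. Depth limits MB21D1, BST2, PDCD1LG2, IFI27 and the interferon genes.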
